A study of Homo sapiens
Mus musculus with 5 samples.

Results

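The genes described here are the secreted signals for vessel growth ANGPTL4, VEGFA, VEGFB, VEGFC, PGF, ANGPT1, ANGPT2, PDGFA and PDGFB in human cancer cells, the mouse genes of the same names in the host, and the host receptors Kdr, Flt1, Flt4, Tek and Tie1. They were selected by gene symbol, with earlier results of these data known. Of these 23 genes, 21 were found among the 25524 human and 24628 mouse genes of the study: 7 human ligands, 9 mouse ligands and 5 mouse receptors. Human ANGPT1 and ANGPT2 were not analysed here.

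The libraries came from 3 brain tumors and 2 orthotopic lung tumors grown in athymic nu/nu mice, a strain that lacks a thymus and with it most T cells. Both groups were grown from H2030-BrM3, a brain-metastatic derivative of a human lung adenocarcinoma line, so that all 5 libraries share 1 cell line and 1 mouse strain. For the lung tumors, cells were injected into the trachea; the labels do not give how the brain tumors were started or how old the mice were. They also do not say that tumors of a group came from separate mice, so the p-values measure the spread between these samples, which may be technical. Human reads stand for the cancer cells and mouse reads for all host cells in the piece of tissue taken.

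VEGFA binds the endothelial receptors Kdr (VEGF receptor 2) and Flt1 (VEGF receptor 1) and drives endothelial division, sprouting and leakage, while VEGFB and PGF bind Flt1 and VEGFC binds mainly Flt4, the receptor of lymphatic vessels. Angpt1 activates Tek (Tie2) and steadies vessels, Angpt2 competes with it at the same receptor, and Tie1 is the partner of Tek. PDGFB draws pericytes to new vessels, and PDGFA acts on stromal and glial cells. ANGPTL4 is a secreted protein that inhibits lipoprotein lipase and also acts on endothelial junctions, and its gene is induced by PPAR, hypoxia and TGF-beta signalling. VEGFA is likewise a hypoxia target, made in brain largely by glia and in lung largely by alveolar epithelium.

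Values are RPKM, reads divided by gene length and by the library's depth in that species, as deposited by the authors. Differences are log2 changes, brain minus lung, on the log2(RPKM + 1) scale with their standard error (SE). A gene was called at an adjusted p under 0.05 by limma, with Benjamini-Hochberg adjustment over all tested genes of its species. In fits that leave 1 lung tumor the spread comes from the brain tumors alone, so calls in them carry little weight. The libraries held 2445904 to 8419288 human reads. Mouse reads numbered 231156 to 8636094, fewest in lung tumor 1, where 1 read of a host gene weighs heavily. Lung tumor 1 also stood apart in its mouse reads by low values of long genes (median log2 deviation of -0.82 in the longest of 5 equal bins of gene length, against 0.13 to 0.23 in the other libraries) and by few lung markers. Its human reads likewise gave -0.53 for the longest genes, against 0.10 to 0.17 in the other libraries, and the part of this in the values below was not tested. Host markers of astrocytes summed to 13784 to 15438 RPKM in brain tumors, against 266 and 186 RPKM in lung tumors, and those of alveolar type 2 cells to 35.7 to 63.5 RPKM in brain tumors, against 270 RPKM in lung tumor 1 and 19579 RPKM in lung tumor 2. The tissue named on the labels was thus marked clearly in 4 libraries and weakly in lung tumor 1.

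In the cancer cells, ANGPTL4 had the largest log2 change of the 7 ligands in size, and it did not pass the test. ANGPTL4 (ENSG00000167772.11, GRCh38 chromosome 19, 8364155 to 8374370) had 256, 211 and 57.2 RPKM in brain tumors 1, 2 and 3, against 1008 and 472 RPKM in lung tumors 1 and 2. Every brain tumor lay below both lung tumors, and the brain tumors themselves differed 4.47-fold. The mean was 175 ± 104 RPKM in brain tumors (SD, n = 3) and 740 ± 379 RPKM in lung tumors (SD, n = 2), a log2 change of -2.23 (SE 0.65). Its unadjusted p was 0.00812 and its adjusted p by limma 0.433. Brain tumor 3, the lowest, had 130 reads of the gene.

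PDGFA was the other human ligand whose groups did not overlap. It had 25.4, 17.4 and 28.4 RPKM in the brain tumors, against 49.0 and 43.8 RPKM in the lung tumors. The log2 change was -0.96 (SE 0.36), with an unadjusted p of 0.0283 and an adjusted p by limma of 0.470.

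The VEGF ligands of the cancer cells overlapped between the sites. VEGFA (chromosome 6) had 41.7, 42.5 and 76.1 RPKM in brain tumors and 50.5 and 150 RPKM in lung tumors, with lung tumor 2 high and lung tumor 1 among the brain tumors (log2 change -0.75, SE 0.51, adjusted p by limma 0.570). For VEGFB (chromosome 11) the values were 54.4, 43.4 and 44.3 RPKM in brain tumors and 137 and 52.7 RPKM in lung tumors, so that here lung tumor 1 was high and lung tumor 2 among the brain tumors (log2 change -0.84, SE 0.44, adjusted p by limma 0.506). The lung tumors thus ranked in opposite order for the 2 genes, and the ratio of VEGFA to VEGFB was 0.368 in lung tumor 1 and 2.85 in lung tumor 2, with the brain tumors between them at 0.767 to 1.72. VEGFC, the lymphatic growth factor (chromosome 4), had 25.9, 16.6 and 8.78 RPKM in brain tumors and 18.8 and 26.2 RPKM in lung tumors (log2 change -0.48, SE 0.49, adjusted p by limma 0.707).

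PGF and PDGFB were near the limit of detection in the cancer cells. PGF (chromosome 14) had 1.40, 0.108 and 0.284 RPKM in brain tumors and 1.38 and 1.11 RPKM in lung tumors, on 1 to 17 reads. PDGFB (chromosome 22) had 0.826, 3.80 and 2.86 RPKM in brain tumors and 0.890 and 2.79 RPKM in lung tumors, on 5 to 21 reads. No difference in either was detectable at this depth. The 7 human ligands all passed the filter on low values. By limma 0 of 7 were called and 2 had an unadjusted p under 0.05, ANGPTL4 and PDGFA; with voom on recovered reads 0 were called. Of all tested human genes 0.00693% were called, all of these higher in brain, and 10.5% had an unadjusted p under 0.05. In 6 of 7 ligands the log2 change was negative, as in 44.4% of all human genes, and their median was -0.75, against 0.09 over all human genes. Brain tumors lay below both lung tumors for 2 of 7, as for 12.3% of all human genes (29.7% in either direction). Without lung tumor 2 the log2 change of VEGFB was -1.52 and that of VEGFA moved to 0.022.

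**Figure D1:**
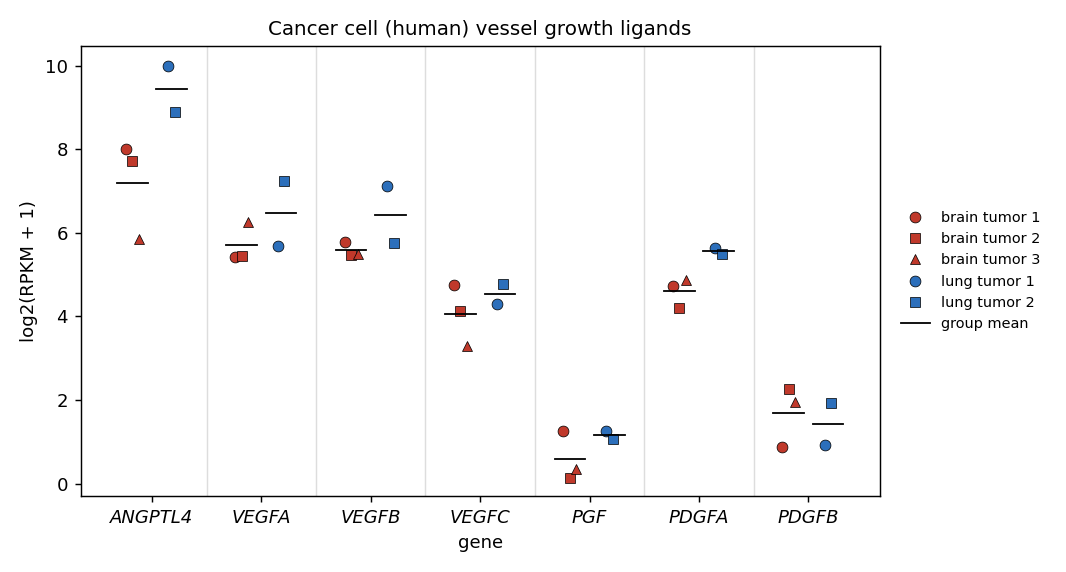
Log2(RPKM + 1) of the 7 human ligands (x axis) in each tumor (y axis), brain tumors in red left of lung tumors in blue, 1 symbol per library and a black line for the group mean. ANGPTL4 and PDGFA separate the groups, with both lung tumors on top, and the other 5 genes overlap.

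Regulators and targets of the HIF, PPAR and TGF-beta pathways gave no called member in the cancer cells, where 0.00693% of all tested human genes were called. Of 20 tested HIF targets, genes switched on when oxygen is low, 0 were called by limma or by voom. For 8 the unadjusted p by limma was under 0.05 and 17 had a negative log2 change, beside 10.5% and 44.4% of all human genes. In 10 of them the brain tumors all lay below both lung tumors, beside 12.3% of all human genes. The median of the 20 was -0.71, or -1.12 without lung tumor 2. The 2 most abundant, the glycolytic enzymes ENO1 and LDHA, had 2492, 2013 and 2689 RPKM and 1775, 1246 and 1375 RPKM in brain tumors, against 4394 and 2312 RPKM and 2159 and 1849 RPKM in lung tumors. The 6 HIF regulators had a median of 0.52 with 0 called and 2 at an unadjusted p under 0.05. This median was -0.16 without lung tumor 1, and without lung tumor 2 it was 1.19 with 3 called higher (ARNT, HIF1A and VHL). HIF1A, the oxygen-sensitive subunit, had 275, 285 and 422 RPKM in brain tumors, against 66.2 and 307 RPKM in lung tumors. These are RNA values. The low one is from lung tumor 1, whose human reads ran low for long genes, and the part of length in it was not tested. Among 11 PPAR regulators and targets 0 were called and 1 had an unadjusted p under 0.05 (median 0.23, or -0.06 without lung tumor 1, and 0.84 with 1 called without lung tumor 2). Among 9 tested TGF-beta signals and targets 0 were called and 5 had an unadjusted p under 0.05 (median -0.30, or -0.62 without lung tumor 1, and -0.04 with 1 called in each direction without lung tumor 2). TGFB1 itself had 216, 268 and 179 RPKM in brain tumors, against 410 and 334 RPKM in lung tumors, without overlap (log2 change -0.76, SE 0.33, adjusted p by limma 0.475).

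Other secreted signals of the cancer cells gave the same count of called genes. Of 12 tested vessel growth signals outside the VEGF, angiopoietin and PDGF families that were listed, 0 were called by limma. For 6 the unadjusted p by limma was under 0.05, beside 10.5% of all human genes. The median of the 12 was -0.45, or -0.42 without lung tumor 2. HDGF, a growth factor first found in hepatoma cells, was the most abundant at 1056, 979 and 1106 RPKM in brain tumors and 1192 and 1048 RPKM in lung tumors. EFNA1, an ephrin ligand of Eph receptors, had 87.4, 77.2 and 119 RPKM in brain tumors, against 328 and 223 RPKM in lung tumors (log2 change -1.53, SE 0.35, adjusted p by limma 0.340). The 8 tested secreted inhibitors of vessel growth had a median of 0.68 (0.42 without brain tumor 1 and 0.28 without lung tumor 1), with 0 called and 0 at an unadjusted p under 0.05. Semaphorin SEMA3A, which repels sprouting endothelium through neuropilin 1, had 629, 944 and 336 RPKM in brain tumors and 204 and 371 RPKM in lung tumors. THBS1, thrombospondin 1, had 51.4, 160 and 340 RPKM in brain tumors and 56.3 and 134 RPKM in lung tumors. Groups overlapped for both inhibitors.

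Among receptors for these signals, the cancer cells expressed mainly the co-receptor NRP1. Of 7 listed VEGF, angiopoietin and PDGF receptors in the human table, 2 passed the filter and 0 were called, with 0 at an unadjusted p under 0.05. NRP1 had 27.0, 48.6 and 15.0 RPKM in brain tumors and 14.6 and 18.0 RPKM in lung tumors, and FLT4 had 6.45, 5.15 and 4.01 RPKM in brain tumors and 3.09 and 8.0 RPKM in lung tumors. Of 4 tested human endothelial markers 0 were called and 0 had an unadjusted p under 0.05. CDH5, the endothelial cadherin, was at 0.332 to 1.11 RPKM in 4 libraries and at 13.2 RPKM, on 91 reads, in lung tumor 2, the library richest in mouse endothelial RNA. Whether these reads came from the mouse was not tested.

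In the host, 4 of the 9 ligands were called. Angptl4, Vegfa and Vegfc were lower in brain tumors than in lung tumors and Vegfb was higher, and the other 5 did not pass the test. Of all tested mouse genes, 8.12% were called lower and 14.3% called higher. The median log2 change of the 9 ligands was -1.17, against 0.08 over all mouse genes, and 7 of 9 were negative, as were 47.5% of all mouse genes. In bulk tissue, fewer cells of a type and less RNA per cell cannot be told apart, and this holds for every host value here. The libraries hold no tumor-free brain or lung, so every host difference between the sites also includes the organ itself.

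Host Angptl4 had 14.5, 14.9 and 8.85 RPKM in brain tumors 1, 2 and 3, against 86.6 and 55.1 RPKM in lung tumors 1 and 2. Both lung tumors were far above the 3 brain tumors. The mean was 12.7 ± 3.38 RPKM in brain tumors (SD, n = 3) and 70.9 ± 22.2 RPKM in lung tumors (SD, n = 2), a log2 change of -2.38 (SE 0.39, adjusted p by limma 0.0110). Human ANGPTL4 and host Angptl4 thus had close log2 changes, -2.23 and -2.38, with only the host gene called, and a difference between them was not tested.

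Host Vegfa had 102.8, 105 and 73.2 RPKM in brain tumors, against 430 and 1212 RPKM in lung tumors. The lung tumors differed 2.82-fold and the brain tumors 1.44-fold, with no overlap. Its log2 change of -2.95 (SE 0.50, adjusted p by limma 0.0119) was the largest in size among the 9 ligands. Host Vegfb went the other way, with 47.3, 42.1 and 36.7 RPKM in brain tumors, against 18.2 and 18.4 RPKM in lung tumors (log2 change 1.15, SE 0.30, adjusted p by limma 0.0420). The ratio of Vegfa to Vegfb was 2.17, 2.50 and 1.99 in brain tumors, against 23.6 and 66.0 in lung tumors. Host Vegfc had 5.84, 5.38 and 3.88 RPKM in brain tumors, against 15.2 and 39.0 RPKM in lung tumors (log2 change -2.09, SE 0.51, adjusted p by limma 0.0352).

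In lung tumor 1 these host values rest on few reads: 25 for Angptl4, 87 for Vegfa, 5 for Vegfb and 2 for Vegfc. Without lung tumor 1 the log2 changes of Angptl4, Vegfa, Vegfb and Vegfc were -2.06, -3.70, 1.15 and -2.74. Without lung tumor 2 they were -2.70, -2.21, 1.16 and -1.44. Each call depended on the brain tumors: Angptl4 was lost without brain tumor 2 or 3 (adjusted p by limma 0.0560 and 0.0507), and Vegfa, Vegfb and Vegfc without any 1 of them (0.0548 to 0.0708, 0.102 to 0.178 and 0.107 to 0.131). The log2 change of Angptl4 was -2.06 to -2.70 and that of Vegfa -2.21 to -3.70 over 14 alternatives. Vegfb also missed the threshold with no filter, without a trend in eBayes and with voom on recovered reads (adjusted p 0.0527, 0.0557 and 0.0526), and Vegfc with no filter (0.0649).

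Host Pgf was set by 1 library. It had 6.38, 5.03 and 4.30 RPKM in brain tumors, against 141 RPKM in lung tumor 1 and 6.43 RPKM in lung tumor 2 (log2 change -2.40, SE 1.19, adjusted p by limma 0.195). Lung tumor 1 held 53 reads of Pgf, and lung tumor 2 lay just above the highest brain tumor. Without lung tumor 2 the log2 change of the gene was -4.52, and without lung tumor 1 it was -0.27. Host HIF targets summed to 1639, 1394 and 1180 RPKM in brain tumors, against 8181 RPKM in lung tumor 1 and 840 RPKM in lung tumor 2, and fibroblast markers to 742, 121 and 105 RPKM in brain tumors, against 16423 and 9204 RPKM in lung tumors. Of 12 host HIF targets 0 were called by limma and 2 had an unadjusted p by limma under 0.05, beside 22.4% and 38.5% of all mouse genes. Their median log2 change was -1.17, or -3.30 without lung tumor 2 and 0.61 without lung tumor 1. The part of these in the Pgf value was not tested.

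The angiopoietins and PDGFs of the host were not called. Angpt1 had 8.98, 4.91 and 5.22 RPKM in brain tumors, against 24.8 RPKM in lung tumor 2 and 0 reads in lung tumor 1, where a count of 0 allows up to 2.98 RPKM (3 reads, counting error only). The lung tumors enclose the brain tumors, and the log2 change was 2.84 without lung tumor 2 and -1.85 without lung tumor 1. Angpt2 had 10.8, 8.22 and 4.52 RPKM in brain tumors and 20.0 and 9.83 RPKM in lung tumors (log2 change -0.84, SE 0.52, adjusted p 0.286). The ratio of Angpt2 to Angpt1 was 1.201, 1.67 and 0.866 in brain tumors and 0.397 in lung tumor 2. Lung tumor 1, with 0 reads of Angpt1, gave no ratio. With Angpt2 at 20.0 RPKM, on 10 reads, and Angpt1 at up to 2.98 RPKM, its ratio would lie above the brain tumors. The lung tumors thus lay on either side of the brain tumors in this ratio.

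Pdgfa had 34.2, 24.0 and 28.0 RPKM in brain tumors and 32.8 and 66.8 RPKM in lung tumors, and Pdgfb had 16.8, 11.3 and 3.69 RPKM in brain tumors and 7.22 and 61.8 RPKM in lung tumors. In both genes lung tumor 2 was high and lung tumor 1 lay among the brain tumors (log2 changes -0.70 and -1.17, adjusted p by limma 0.256 and 0.428). Without lung tumor 1 the change of Pdgfa was -1.20, and without lung tumor 2 that of Pdgfb was 0.30. Over the 9 host ligands, brain tumors lay below both lung tumors for 4 and above both for 1, as for 26.2% and 30.0% of all mouse genes (56.1% in either direction).

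**Figure D2:**
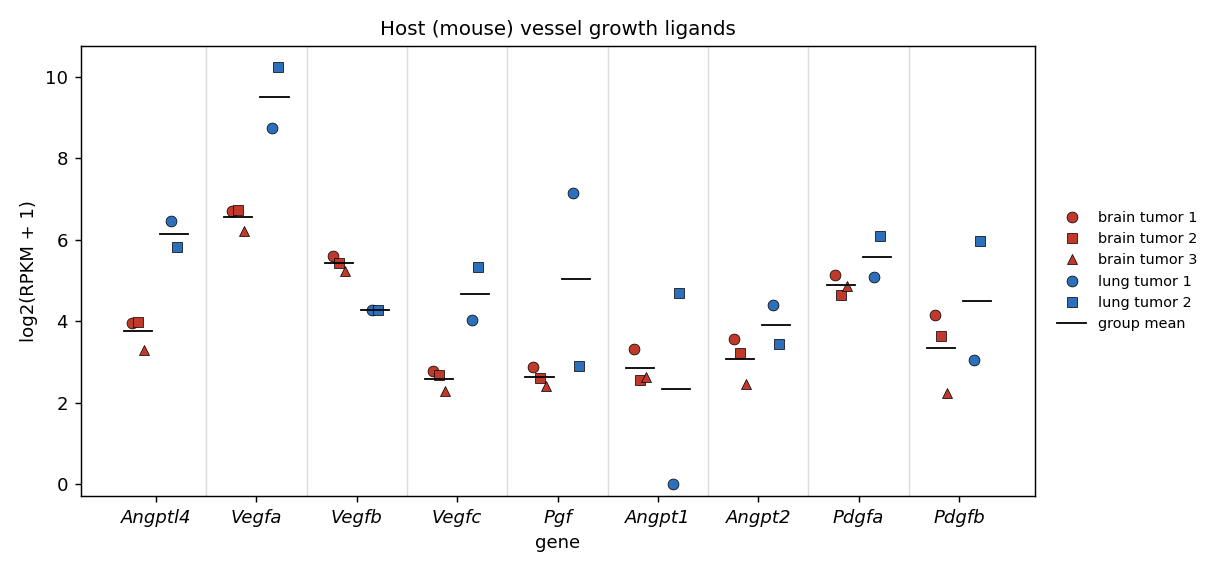
Log2(RPKM + 1) of the 9 host ligands (x axis) in each tumor (y axis), brain tumors in red left of lung tumors in blue, 1 symbol per library and a black line for the group mean. Angptl4, Vegfa and Vegfc lie lower and Vegfb higher in all brain tumors, Pgf is high in lung tumor 1 alone, and Angpt1 is at 0 there.

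Because the cancer cells and the host carry the same genes, the reads of each gene can be split by species. Human reads were 75.6%, 56.5% and 22.1% of the reads of brain tumors 1, 2 and 3, and 96.6% and 41.4% of those of lung tumors 1 and 2. ANGPTL4 was mostly of human origin in all 5: its human share was 97.6%, 93.3% and 57.8% in brain tumors, against 99.6% and 82.0% in lung tumors, above the library's own share each time. VEGFA was mostly of host origin where host tissue was plentiful, with a human share of 63.0%, 41.6% and 28.4% in brain tumors, against 81.6% and 10.6% in lung tumors. In lung tumor 2 this was 660 human and 5587 mouse reads. VEGFA lay under the library's own share in 4 libraries, and above it in brain tumor 3.

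VEGFC too lay above the library's own share in all 5 libraries, with 97.2%, 91.1% and 62.0% human reads in brain tumors, against 98.9% and 54.8% in lung tumors. PDGFA had 64.2%, 42.4% and 18.3% human reads in brain tumors, against 97.0% and 26.5% in lung tumors, and VEGFB had 71.7%, 48.9% and 19.5%, against 99.3% and 59.1%. PGF and PDGFB came mostly from the host wherever they were sampled well, with 1.64% to 37.8% and 4.23% to 11.2% human reads in brain tumors, and 9.84% and 0.915% in lung tumor 2. These shares are of recovered reads, which are lower bounds, and depend on how much host tissue was taken with each tumor; exact binomial intervals cover counting error only and ran from 51.0% to 64.3% for ANGPTL4 in brain tumor 3.

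In lung tumor 1 the abundant human reads leave room for reads given to the wrong species. There the median was 1.49 mouse reads per 100 human reads over 1227 genes with at least 1000 human reads, and ANGPTL4 had 0.408, at or above 19.0% of those genes. VEGFB had 0.663, VEGFC 1.13 and PDGFA 3.06 mouse reads per 100 human reads, whereas VEGFA had 22.5 and PGF 408. ANGPTL4, with 6125 human reads, met the minimum of 1000, and its ratio did not stand above the median. VEGFA had 387 human reads there, VEGFB 754, VEGFC 177, PDGFA 327 and PGF 13, all under the minimum. The median over the 1227 genes therefore cannot sort the host values of these 5 genes. A human origin of the mouse reads of any of these ligands was not tested. Without lung tumor 1 the host changes were -2.06 for Angptl4, 1.15 for Vegfb and -2.74 for Vegfc.

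**Figure D3:**
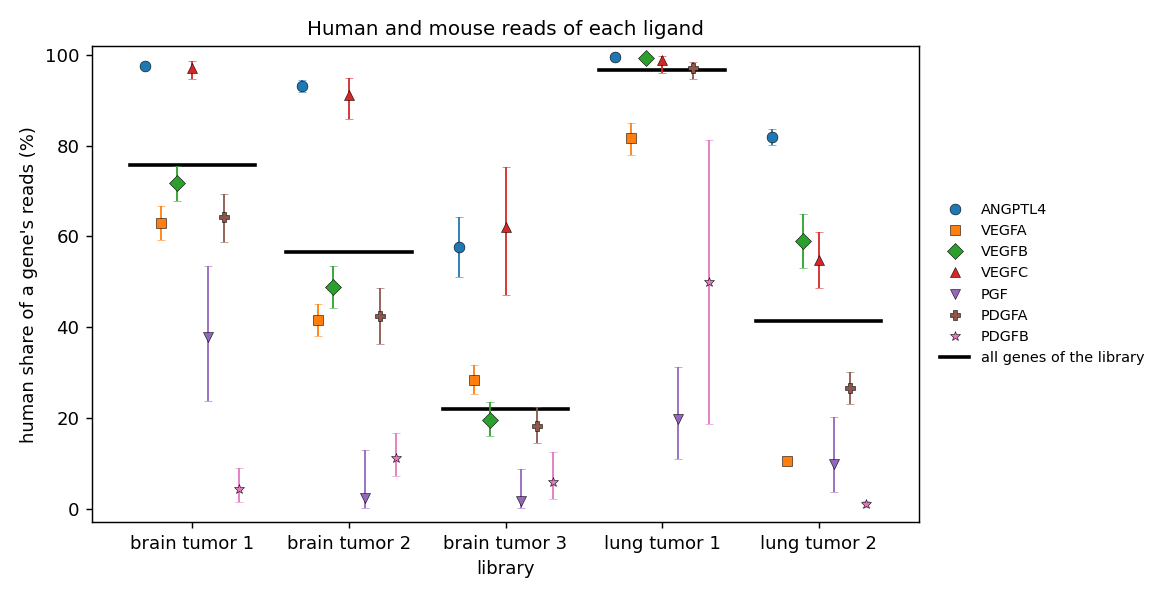
Human share in percent (y axis) of the reads of 7 ligands, by symbol and colour, in the 3 brain tumors and then the 2 lung tumors (x axis), with a black line for the human share of all reads of the library. Bars on the symbols are exact 95% binomial intervals; ANGPTL4 and VEGFC lie above the library's own share in all 5 libraries, and VEGFA falls to 10.6% in lung tumor 2.

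None of the 5 host receptors passed the test, and lung tumor 2 was highest for each of them. By limma 0 were called and 1 had an unadjusted p under 0.05 (Tie1), as had 38.5% of all mouse genes. On recovered reads the count differed, and 3 were called with voom (Flt4, Tek and Tie1). In all, 22.4% of all mouse genes were called in either direction by limma. All 5 log2 changes were negative, with a median of -1.90. Kdr had 16.4, 10.3 and 3.44 RPKM in brain tumors and 8.38 and 134 RPKM in lung tumors (log2 change -1.90, SE 1.2, adjusted p by limma 0.292). Lung tumor 2 stood 16.04-fold above lung tumor 1, which lay within the brain tumors.

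Tek had 7.85, 6.34 and 2.62 RPKM in brain tumors and 5.80 and 78.3 RPKM in lung tumors, and Flt4 had 5.20, 3.24 and 2.37 RPKM in brain tumors and 4.28 and 17.8 RPKM in lung tumors (log2 changes -1.91 and -1.16, adjusted p by limma 0.241 and 0.247). Flt1 was the most abundant receptor in all 5 libraries, with 79.9, 69.0 and 52.4 RPKM in brain tumors and 74.4 and 151 RPKM in lung tumors (log2 change -0.67, SE 0.41, adjusted p 0.274). In all 3 genes lung tumor 2 was highest and lung tumor 1 lay among the brain tumors. Tie1 was the 1 receptor without overlap, with 8.81, 7.35 and 3.82 RPKM in brain tumors, against 14.4 and 72.2 RPKM in lung tumors (log2 change -2.19, SE 0.74, adjusted p 0.0837), an order found in 26.2% of all mouse genes. Without lung tumor 1 the log2 changes of the 5 receptors ran from -1.18 (Flt1) to -3.82 (Kdr). Without lung tumor 2 they ran from 0.028 (Kdr) to -1.07 (Tie1). Kdr, Flt4, Tek and Tie1 belong to the longest of 5 equal bins of mouse gene length, in which lung tumor 1 read low, and Kdr had 8 reads there; the part of length in their values was not tested.

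Endothelial markers were counted beside the receptors. The 16 markers summed to 598, 430 and 290 RPKM in brain tumors, against 638 and 3166 RPKM in lung tumors. In lung tumor 1 they held 190 reads together, so values set against them there rest on few reads. Of the 16 markers 3 were called, all lower (Ecscr, Esam and Emcn), beside 8.12% of all mouse genes. The median log2 change of the 16 was -1.80. Without any 1 brain tumor 0 were called, without lung tumor 1 the count was 11, all lower, with a median of -2.58, and without lung tumor 2 it was 4 lower and 2 higher with a median of -0.46; voom gave 10, all lower. Set against the mean log2 level of the 16 markers in the same library, Kdr averaged -0.79 in brain tumors, against -1.32 and 0.19 in lung tumors 1 and 2, and Tek averaged -1.43 in brain tumors, against -1.79 and -0.58, so that the lung tumors lay on either side of the brain mean for both. Flt4 stood at -1.95, -2.05 and -1.68 in brain tumors, against -2.15 and -2.65 in lung tumors. On this scale Flt1 stood at 1.75, 2.00 and 2.30 in brain tumors, against 1.68 and 0.35 in lung tumors, and Tie1 at -1.29, -1.07 and -1.17 in brain tumors, against -0.60 and -0.70 in lung tumors. Per endothelial marker, Flt1 and Flt4 lay higher and Tie1 lower in each brain tumor than in both lung tumors. By RPKM the groups did not overlap for 56.1% of all mouse genes in either direction, and the share on this scale was not counted. The nearest values were 1.75 and 1.68 for Flt1, and -2.05 and -2.15 for Flt4. The Flt4 value of -2.15 is from lung tumor 1, on 5 reads of Flt4. The differences per endothelial marker were not tested, and the lung tumors lay far apart for Flt1 too.

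**Figure D4:**
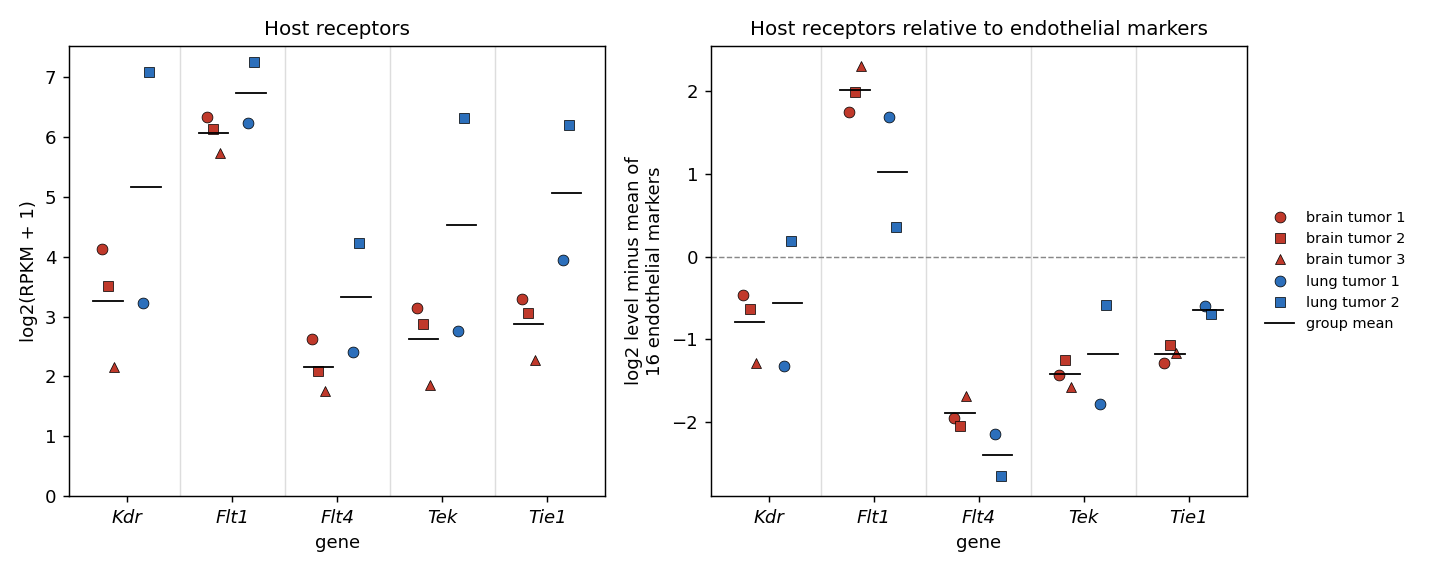
The 5 host receptors (x axis) in each tumor, as log2(RPKM + 1) in the left panel and as the log2 level minus the mean of 16 endothelial markers in the same library in the right panel (y axes), brain tumors in red left of lung tumors in blue, with a black line for the group mean. Lung tumor 2 is highest for all 5 in the left panel, and in the right panel the lung tumors lie on either side of the brain mean for Kdr and Tek.

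Vessel states and neighbours of the receptors were counted from further lists. Of 13 co-receptors and other vessel receptors 3 were called, all lower, as were 8.12% of all mouse genes: Pdgfrb, the PDGFB receptor of pericytes, Unc5b and the Notch ligand Dll4. The count was 0 without brain tumor 2 or 3, 1 without brain tumor 1, 10 without lung tumor 1, and 3 lower and 2 higher without lung tumor 2; voom gave 8. Pdgfrb had 17.8, 13.1 and 9.96 RPKM in brain tumors, against 88.0 and 52.4 RPKM in lung tumors (log2 change -2.27, SE 0.41, adjusted p by limma 0.0137). Of 6 markers of sprouting tip cells 4 were called, all lower, beside 8.12% of all mouse genes: Esm1, Plvap, Cxcr4 and Kcne3. The count was 1 or 2 without any 1 brain tumor and 4 without either lung tumor. Plvap, which forms the diaphragms of leaky capillaries, had 13.1, 10.1 and 20.9 RPKM in brain tumors, against 148 and 265 RPKM in lung tumors (log2 change -3.73, SE 0.44, adjusted p by limma 0.00375). The 6 markers together summed to 51.3, 38.6 and 35.6 RPKM in brain tumors, against 321 and 366 RPKM in lung tumors. Whether they mark sprouting in these tissues was not tested.

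Of 10 brain endothelium markers 2 were called, both higher, beside 14.3% of all mouse genes called higher: the organic anion transporters Slco1a4 and Slco1c1. The count was 7 higher without lung tumor 2, and 6 higher and 1 lower without lung tumor 1. Slco1a4 had 38.02, 33.8 and 18.5 RPKM in brain tumors and 0 reads in both lung tumors. In lung tumor 1, 8 of the 10 were at 0, yet the list summed to 1090, 959 and 866 RPKM in brain tumors and 983 and 200 RPKM in lung tumors, on 160 reads in lung tumor 1. Of these, 139 were of the glucose transporter Slc2a1, which is also on the list of HIF targets. Of 8 lung capillary markers 1 was called, lower (Nostrin), beside 8.12% of all mouse genes called lower, and 0 were called without any 1 brain tumor. Their median log2 change was -2.65, or -5.09 without lung tumor 1 and -0.98 without lung tumor 2. Their sum was 119, 70.1 and 80.7 RPKM in brain tumors, against 130 RPKM in lung tumor 1 and 1379 RPKM in lung tumor 2. Of 5 smooth muscle markers 4 were called, all lower (Des, Acta2, Tagln and Cnn1), beside 8.12% of all mouse genes. Whether this RNA came from vessel walls was not tested. Of 8 pericyte markers 1 was called higher (Vtn) and 1 lower (Higd1b), beside 14.3% and 8.12% of all mouse genes. The smooth muscle count was 3 to 5 with 1 library left out, and the pericyte count was 0 without brain tumor 1, 1 (lower) without brain tumor 2 or 3, 2 higher and 3 lower without lung tumor 1, and 1 higher and 2 lower without lung tumor 2.

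ANGPTL4 acts on lipoprotein lipase. Of 6 tested host genes of the lipoprotein lipase system 4 were called, all lower, beside 8.12% of all mouse genes. These were Lpl, the lipase itself, Gpihbp1, which holds it on capillary endothelium, the fatty acid carrier Cd36, and Angptl2, a relative of Angptl4. Lpl had 20.8, 25.7 and 17.7 RPKM in brain tumors, against 164 and 81.3 RPKM in lung tumors (log2 change -2.39, SE 0.40, adjusted p by limma 0.0116). Gpihbp1 had 0.836, 1.39 and 0.263 RPKM in brain tumors, on 1 to 3 reads, against 108 and 155 RPKM in lung tumors (log2 change -6.20, SE 0.45, adjusted p 0.00125). The count was 2 without brain tumor 2 or 3, and 3 to 5 without any other 1 library. In the cancer cells 1 gene of this kind, LMF1, was tested, and it was not called.

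**Figure D5:**
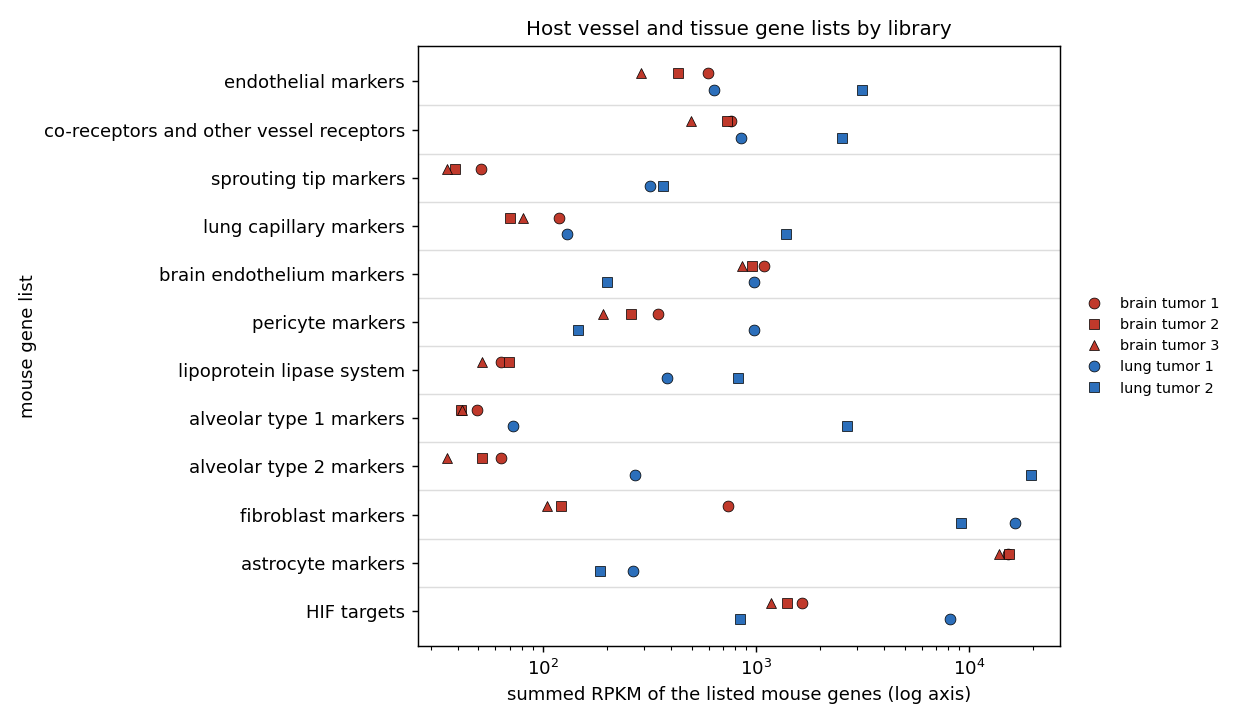
Summed RPKM of host marker lists (rows) on a log axis (x axis), 1 symbol per library, brain tumors in red above lung tumors in blue. Astrocyte markers are high in all brain tumors, endothelial, lung capillary and alveolar markers are highest in lung tumor 2 by a wide margin, and fibroblast and sprouting tip markers are high in both lung tumors.

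The genes nearest in pattern over the 5 libraries were found by the distance between log2 profiles, a description with no test. For human ANGPTL4 they included RAB4B, SAMD11, KCNN4 and TMEM208, the nearest at a distance of 0.92, which is not close, and for VEGFA PORCN, REC8, NOTUM, MGLL and ETS1, the nearest at 0.17. For host Kdr they were Clec14a, Cped1, Tek, Arap3 and Irgm2, with Clec14a at 0.35, and for host Angpt2 Gins4, Itgb5, Jagn1, Pck2 and Fam20a, with Gins4 at 0.12.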

How the data were processed

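Values deposited by the authors are RPKM for 25524 human and 24628 mouse genes in 5 RNA sequencing libraries. Per the submitters' processing notes, GRCh38 (hg38) and GRCm38 (mm10) were used; no aligner, gene length or rule for assigning species is given in the sources used here. Columns were joined to samples by library number, 0 left unmapped. Human coordinates were looked up by symbol in RefSeq (GRCh38.p14). Genes that reached an RPKM of 1 in at least 2 libraries (14423 human, 15431 mouse) were fitted as log2(RPKM + 1) with limma 3.58.1 in R 4.3.3, eBayes with trend, adjusted within species at 0.05. An exact permutation test of 3 against 2 cannot give a p under 0.2. Scripts were tested on simulated data. Whole reads were recovered from RPKM ratios for 21131 human and 20633 mouse genes above 0 in at least 2 libraries, up to a common divisor, so totals are lower bounds. List genes were named if called (up to 4, by log2 change), otherwise the 2 most abundant. Members and lists were chosen with earlier results of these data known.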

Additional observations from a re-analysis of the deposited data

How the results depend on the processing

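Human genes called numbered 1 in the reported fit, 0 with voom, 114 with the replicate number as a block and 0 to 1905 with 1 library left out. Mouse genes called numbered 3457, against 2295 with no filter, 1484 with the replicate block and 1195 to 8275 with 1 library left out; voom gave 4233, of which 50.7% were higher in brain, against 63.8%. Human ligands called were 0, and 0 to 1 with 1 library left out. Host ligands called were 4, against 2 with no filter, 1 with the replicate block (Vegfa), and 0 to 6 with 1 library left out. Host receptors called were 0, against 1 with quantile normalization (Tie1), 3 with voom and 0 to 5 with 1 library left out. Direction turned when 1 library was left out for human VEGFA (log2 change of -1.53 to 0.022), human PDGFB (-0.23 to 0.77), host Angpt1 (-1.85 to 2.84), host Pdgfb (-2.64 to 0.30) and Kdr (-3.82 to 0.028), and for host Angpt1 also with voom (-1.19); the cause was not tested. The 2 pseudocounts and median-ratio scaling changed no call of the 21 genes. The median of all mouse genes moved to 0.21 under median-ratio scaling, -0.11 under quantile normalization and -0.15 under voom, against 0.08. No label pairs a brain with a lung tumor by replicate number. Deviation correlations between the sites were -0.10 to 0.10 in human and -0.05 to 0.05 in mouse. With 2 lung tumors their deviations mirror each other, so these correlations cannot decide whether samples are paired. With 1 lung tumor left, its spread is assumed to be that of the brain tumors. Mouse depth in lung tumor 1 limits every host value there.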

Other observations

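Lymphatic markers of the host split in 2. Of 4 tested, 2 were called lower and 2 higher, beside 8.12% and 14.3% of all mouse genes. Lyve1 and the chemokine Ccl21a were lower in brain tumors than in lung tumors. Lyve1 had 1.76, 2.16 and 0.982 RPKM in brain tumors, against 119 and 45.6 RPKM in lung tumors (log2 change -4.85, SE 0.54, adjusted p by limma 0.00319). Prox1 and Reln were higher in brain tumors. Reln had 22.2, 33.4 and 76.7 RPKM in brain tumors, against 0 and 4.41 RPKM in lung tumors (log2 change 4.09, SE 0.87, adjusted p by limma 0.0240). Neither Prox1 nor Reln was called without any 1 brain tumor. Both of these are also known in neurons. All 8 neuron markers were called higher in brain tumors, beside 14.3% of all mouse genes. The part of neurons in the Prox1 and Reln values was not tested. Macrophage and microglia markers gave 1 called gene of 10, lower, beside 8.12% of all mouse genes called lower. This was the mannose receptor Mrc1, at 13.3, 8.61 and 3.35 RPKM in brain tumors, against 169 and 45.4 RPKM in lung tumors. The count of lower genes was 0 without any 1 brain tumor. The median log2 change of the 10 was -1.32, or 0.09 without lung tumor 1 and -1.91 without lung tumor 2. Platelet markers, whose cells store VEGFA and PDGF, summed to 24.6, 11.9 and 9.93 RPKM in brain tumors, against 3810 RPKM in lung tumor 1 and 92.9 RPKM in lung tumor 2. Of 4 tested, 2 were called, both lower (Ppbp and Itga2b), beside 8.12% of all mouse genes, and 1 was called without brain tumor 2 or 3.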
